A study of Mus musculus with 8 samples.

Results

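The genes described here encode shelterin, the protein complex that sits on telomeres, and the closest telomere enzymes: Terf1, Terf2, Terf2ip, Tinf2, Acd, Pot1a and Pot1b of shelterin, and Tert, Dkc1 and Rtel1. The 10 genes are 10 of 21368 genes that the arrays' probes name by RefSeq accession. Pot1b was chosen because its value was low in treated mice, close to background. Its contrast between the groups is therefore given as a description, with no test, and the other 9 genes were taken as its relatives. Values come from 1-colour Agilent arrays hybridised with hippocampal RNA, 1 array per mouse, from 8 female nontransgenic littermates of the APPswe695/PSEN1dE9 line on a C57BL/6J background. The 4 Control mice were untreated and 19 weeks old. The 4 Hydroxyurea mice drank water with hydroxyurea at 45 mg/kg/day for 10 weeks, starting at 9 to 14 weeks of age. Their ages were 24 weeks for Hydroxyurea 1 and 2 and 19 weeks for Hydroxyurea 3 and 4. Each value is log2 of the processed signal minus log2 of that array's 75th percentile. A value shows how a probe varies between mice and is not a scale on which probes of different genes can be ranked.

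Telomeres are repeat arrays that cap chromosome ends. The proteins of Terf1 and Terf2 bind the double-stranded repeat, and those of Pot1a and Pot1b bind the single-stranded overhang. Those of Tinf2 and Acd join the complex together, and that of Terf2ip is a partner of the Terf2 protein. Telomerase extends the repeat with a reverse transcriptase, Tert, and an RNA template, Terc, and is best known from germ cells, stem cells and tumours, while most cells of the adult hippocampus do not divide. Hydroxyurea inhibits ribonucleotide reductase and so limits the deoxynucleotides for DNA replication, telomere ends included. The series sets treated against untreated hippocampus, and its title concerns the protection of hippocampal neurons and memory.

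Mice carry Pot1a and Pot1b as a gene pair in place of the human POT1 gene. Since Pot1b was chosen for its low treated values, any contrast within the pair is a description only. The 250 bases upstream of each start are shown for this pair and for Tert, because the results below turn on them. They are from RefSeq on build GRCm38.p6, whose promoter table held 9 of the 10 genes, and are written 5′ to 3′ on the gene's strand. Capitals mark every match to any of 4 short motifs, searched on either strand. The GC box, bound by factors of the Sp1 family, was searched as GGGCGG. The next motif was the CCAAT box, searched by the letters of its name. For the E-box, which Myc proteins can bind, the search used the palindrome CACGTG. The telomere repeat unit itself was searched as TTAGGG.
Pot1a, chr6:25809219-25809468, minus strand: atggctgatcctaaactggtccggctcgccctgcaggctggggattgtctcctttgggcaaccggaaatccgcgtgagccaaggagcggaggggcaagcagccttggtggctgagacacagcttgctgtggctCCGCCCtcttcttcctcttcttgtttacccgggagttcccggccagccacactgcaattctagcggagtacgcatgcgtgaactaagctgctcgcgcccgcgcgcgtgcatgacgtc
Pot1b, chr17:55712637-55712886, minus strand: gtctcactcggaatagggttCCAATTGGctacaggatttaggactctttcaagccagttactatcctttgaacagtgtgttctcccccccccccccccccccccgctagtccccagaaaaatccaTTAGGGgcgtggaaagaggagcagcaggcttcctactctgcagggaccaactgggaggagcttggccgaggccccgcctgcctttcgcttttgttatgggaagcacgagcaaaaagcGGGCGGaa
Tert, chr13:73626661-73626910, plus strand: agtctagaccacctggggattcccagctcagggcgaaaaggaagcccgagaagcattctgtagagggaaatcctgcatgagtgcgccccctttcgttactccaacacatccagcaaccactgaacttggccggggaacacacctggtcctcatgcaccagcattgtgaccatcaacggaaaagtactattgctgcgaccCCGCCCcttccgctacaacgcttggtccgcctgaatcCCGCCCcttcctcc
Pot1a held 1 GC box and 19 CpG dinucleotides, and Pot1b held 1 GC box and 9 CpG dinucleotides. The Pot1b window also held CCAAT on both strands, overlapping in a palindrome, and 1 telomere repeat unit. Tert held 2 GC boxes and 12 CpG dinucleotides. Among 27025 promoter windows of the same length, 32.9% held a GC box, 34.5% a CCAAT box, 6.05% an E-box and 9.25% a telomere repeat unit, and the median window held 6.0 CpG dinucleotides. These matches describe letters and not bound sites.

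In 4 treated mice against 4 untreated mice, none of the 9 genes other than Pot1b passed the test (limma, adjusted over all genes tested, threshold 0.05). Of all 16618 genes tested, 0 passed, which is 0.00%, and 1643 (9.89%) had an unadjusted p under 0.05. Besides Pot1b, the gene whose treated and untreated values did not overlap was Rtel1, a helicase that opens telomere loops. Tert had lower values on average in treated mice, and the other 7 genes had log2 differences between -0.07 and 0.16. Outside the set, Terc, the RNA template of telomerase, had lower values in all 4 treated mice than in any untreated mouse. The same held for 5.11% of all genes tested. The per-mouse values of the 10 genes are drawn in the plot of members by mouse.

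**Figure D1:**
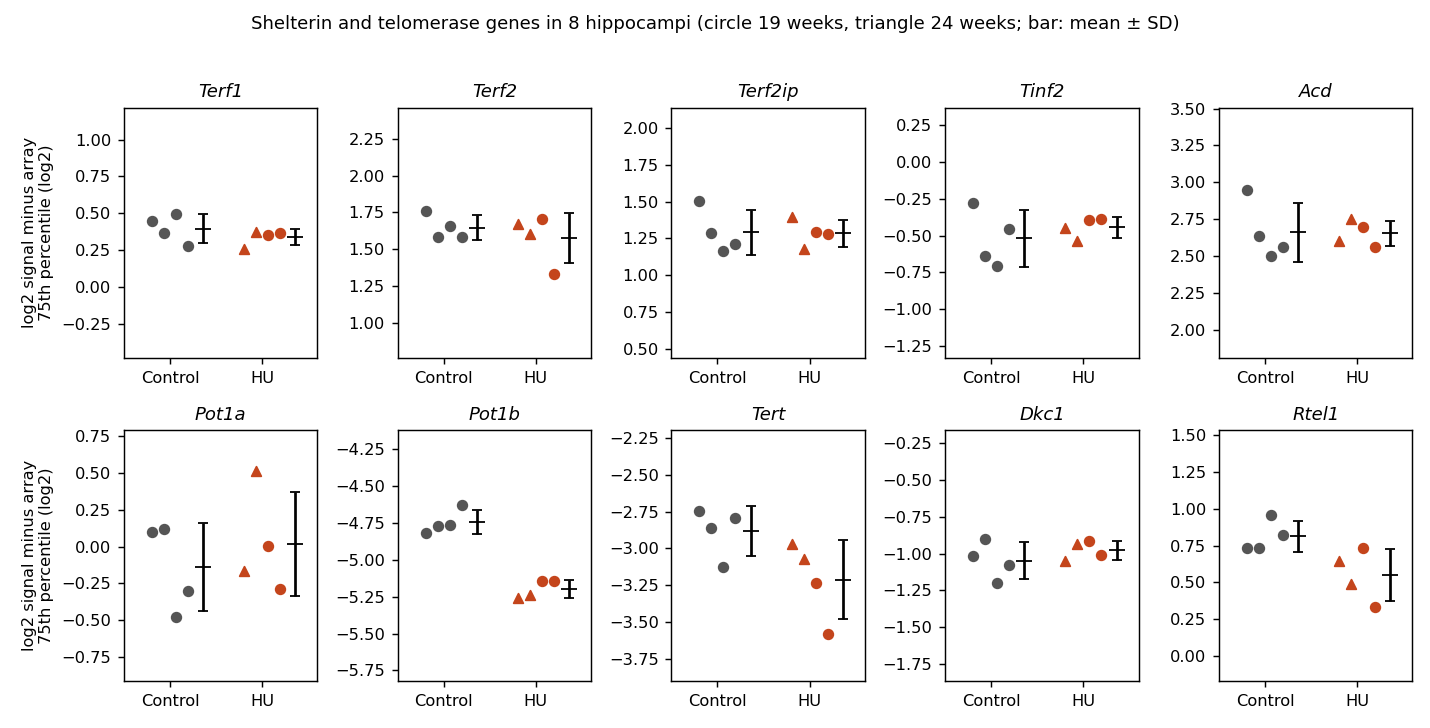
Each panel plots 1 gene in 4 Control and 4 Hydroxyurea (HU) mice as log2 signal minus the array's 75th percentile, with circles for mice of 19 weeks, triangles for mice of 24 weeks and a bar for the group mean ± SD. Every panel spans the same range of log2 units around its own mean, and the groups are apart for Pot1b (-4.82 to -4.63 against -5.26 to -5.14) and touch for Rtel1.

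Pot1b, whose protein acts with Pot1a on the overhang and limits resection of the end, was read by 10 spots of 1 probe on each array. Its values were -4.82, -4.77, -4.77 and -4.63 in Control 1 to 4. In Hydroxyurea 1 to 4 they were -5.26, -5.24, -5.14 and -5.14. The lowest Control value lay 0.33 above the highest treated value, so the groups did not overlap. The group means were -4.75 ± 0.08 in Control and -5.20 ± 0.06 in Hydroxyurea mice (SD, n = 4 each), a log2 difference of -0.45. These are the values for which the gene was chosen.

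The 10 spots show how near to background this reading is. All 10 were well above background on each Control array. After spots marked as outliers were left out, 1 of 9 was well above background on Hydroxyurea 1, 1 of 9 on Hydroxyurea 2, 6 of 10 on Hydroxyurea 3 and 9 of 9 on Hydroxyurea 4. By the rule that a majority of spots must be so, Pot1b was measured on 4 Control and 2 Hydroxyurea arrays, both of the latter from 19-week mice. The spots of an array had an SD of 0.14 to 0.25 in untreated mice and 0.19 to 0.32 in treated mice, which gives the array means a standard error of 0.04 to 0.11.

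Detection limits differed from array to array. The lowest signal well above background, on the same scale, was -6.59 to -5.77 for untreated mice and -6.18 to -5.04 for treated mice, and the Pot1b means of Hydroxyurea 1 and 2 lay below the limits of their own arrays, -5.22 and -5.04. The 308 negative control spots had a median of -8.77 to -7.89 for untreated mice and -8.31 to -7.20 for treated mice. For both measures the groups overlapped, and Hydroxyurea 4 lay below Control 1 and 2. Before scaling, the median processed signal of the Pot1b spots was 62.0, 63.2, 88.4 and 77.3 on the Control arrays and 53.6, 29.2, 49.2 and 62.8 on the Hydroxyurea arrays, and in this form the groups overlapped.

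The size of the Pot1b difference depended on the processing. It was larger with quantile scaling (-0.54) and with median centring (-0.53). With normexp correction, which starts from the median spot signal and adds an offset, it was 0.0026 in place of -0.45. With the 3 outlier-marked spots of the treated arrays kept, all of them brighter than the rest of their array, it was -0.37, and the array means (-5.18, -5.12, -5.14 and -5.01) still lay below those of Control mice. Among 19-week mice only, where both treated arrays measured the probe, it was -0.40. The parts of background, signal column and offset in the normexp value were not tested.

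**Figure D2:**
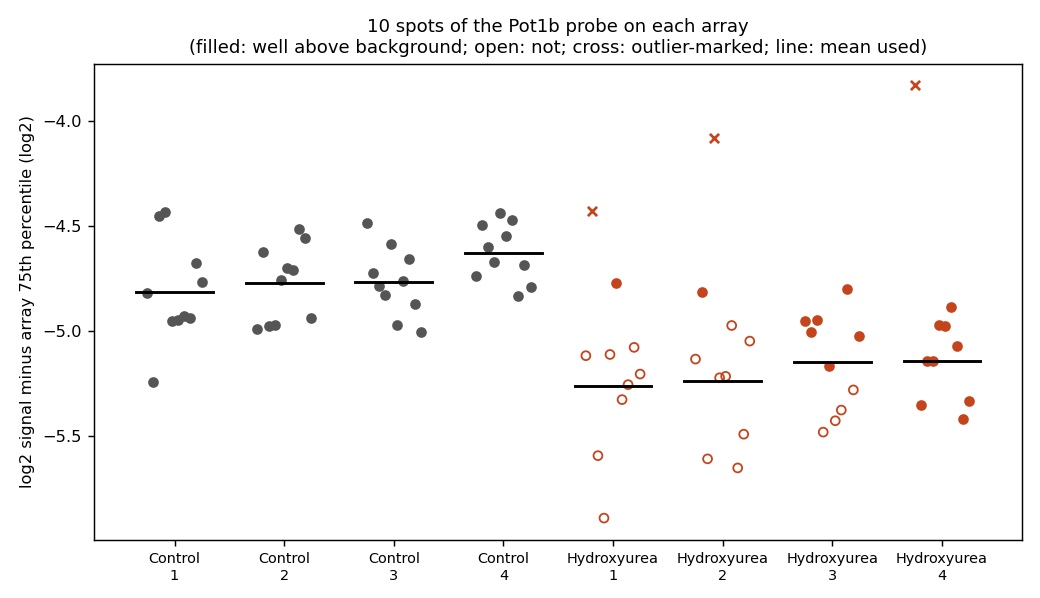
The 10 Pot1b spots of each array are plotted as log2 signal minus the array's 75th percentile, filled where well above background, open where not, and crossed where marked as an outlier and left out, with a line at the mean used. The Control spots are all filled, while most spots of Hydroxyurea 1 and 2 are open and their lines lie near -5.26 and -5.24.

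Pot1a, the paralogue that represses the damage response at the overhang, did not share this pattern, for which Pot1b had been chosen. Untreated mice 1 to 4 had 0.10, 0.12, -0.48 and -0.30, and treated mice 1 to 4 had -0.16, 0.52, 0.00 and -0.29. The groups overlapped, and Hydroxyurea 2, the dimmest array (75th percentile 1052 against 1677 to 2417 on the others), held the highest value. The log2 difference was 0.16 ± 0.21 (SE, n = 4 per group; limma adjusted p = 0.809), with a 95% interval from -0.32 to 0.63. Without Hydroxyurea 2 it was -0.01. Its spread was the widest of the 10 genes in both groups, with SDs of 0.30 and 0.35.

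The proteins of Terf1 and Terf2 bind the double-stranded repeat, and Terf2 protects ends from fusion. For Terf1, untreated mice 1 to 4 had 0.45, 0.37, 0.50 and 0.28, and treated mice 1 to 4 had 0.26, 0.38, 0.36 and 0.36. Its log2 difference was -0.06 ± 0.07, with an interval from -0.21 to 0.10. Terf2, by its brightest probe, was 1.76, 1.58, 1.66 and 1.58 in Control and 1.67, 1.604, 1.70 and 1.33 in treated mice. Hydroxyurea 4 was the low one, and the log2 difference of -0.07 ± 0.09 was 0.01 without that mouse. A second Terf2 probe, assigned to another transcript, had 0.14 ± 0.10 and the third had 0.06 ± 0.15, so the probes of this gene differ in sign.

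Terf2ip and the bridging members Tinf2 and Acd varied less between groups than within them. Terf2ip, the Rap1 partner of Terf2, had 1.29 ± 0.15 in Control and 1.28 ± 0.09 in Hydroxyurea mice (SD, n = 4), and a log2 difference of -0.01 ± 0.09 (SE). A second probe of the gene had 0.08 ± 0.13. Tinf2, which joins the double-strand binders to Acd, had -0.52 ± 0.19 and -0.44 ± 0.07, a difference of 0.08 ± 0.10. Its second probe gave 0.10 ± 0.10. Acd, whose TPP1 protein holds POT1 proteins and recruits telomerase, had 2.66 ± 0.20 and 2.65 ± 0.09, a difference of -0.01 ± 0.11. The sign of Terf2ip and of Acd turned in 7 of 22 other settings each, quantile scaling among them.

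Control 1 held the highest Control value of Terf2 (1.76), Terf2ip (1.504), Tinf2 (-0.28), Acd (2.95) and Tert (-2.75). On that array replicate spots varied by a median of 12.1%, against 3.15% to 3.45% on the other 7. Across the 8 mice, after each group's mean was removed, the pairs of genes with the highest Pearson correlations were Pot1a with Dkc1 (0.75), Terf2ip with Tinf2 (0.73) and Pot1a with Acd (0.73). These describe 8 points that share an array, and Pot1b with Pot1a had -0.44.

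Tert and Terc had lower mean values in treated mice, without passing the test. Tert, the reverse transcriptase, gave -2.75, -2.86, -3.13 and -2.79 for untreated mice 1 to 4. Treated mice 1 to 4 had -2.97, -3.07, -3.24 and -3.58. Only Control 3 lay within the treated range, and all 8 arrays were well above background. The means were -2.88 ± 0.17 and -3.21 ± 0.27 (SD, n = 4 each). The log2 difference was -0.33 ± 0.15 (SE; limma adjusted p = 0.511), with a 95% interval from -0.66 to 0.01. It was -0.41 to -0.21 when a mouse was left out, with -0.21 without Hydroxyurea 4.

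Terc, the RNA that Tert copies, is not among the 10 genes and was named for its place in telomerase. It also had the smallest unadjusted treatment p of the 56 other telomere genes tested, so its values are those of a top gene. Untreated mice 1 to 4 had -3.19, -3.73, -4.06 and -3.74. In treated mice 1 to 4 it was -4.23, -4.17, -4.53 and -4.60, and the groups did not overlap. Over all genes tested, 5.11% had lower values without overlap. The log2 difference was -0.70 ± 0.19 (SE, n = 4 per group; limma adjusted p = 0.452), with an interval from -1.14 to -0.27. All 8 arrays were well above background. On the log2 scale, the Terc difference ran from -0.89 among 19-week mice to -0.39 with normexp correction, where limma gave an adjusted p of 0.494. Its sign was the same in 22 of 22 other settings. That count is no measure of support: without overlap, leaving out mice cannot turn the sign, and several settings return the main value unchanged. Over those settings the limma adjusted p was never below 0.128.

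Tert and Terc followed each other from mouse to mouse, with a Pearson correlation of 0.86 over the 8 mice and 0.75 after the group means were removed. Both probes were read on the same arrays, so this is a description. In Control mice, Control 1 was the highest and Control 3 the lowest for both genes. In treated mice, the 19-week Hydroxyurea 3 and 4 were lower than the 24-week Hydroxyurea 1 and 2 for both genes. The negative control medians on this scale were -7.38, -7.20, -7.61 and -8.31 on Hydroxyurea 1 to 4, also lower for Hydroxyurea 3 and 4. Among Control arrays, the highest was that of Control 1 (-7.89), while the lowest was that of Control 4 (-8.77) and not Control 3. The part of the array background in the Tert and Terc values was not tested.

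**Figure D3:**
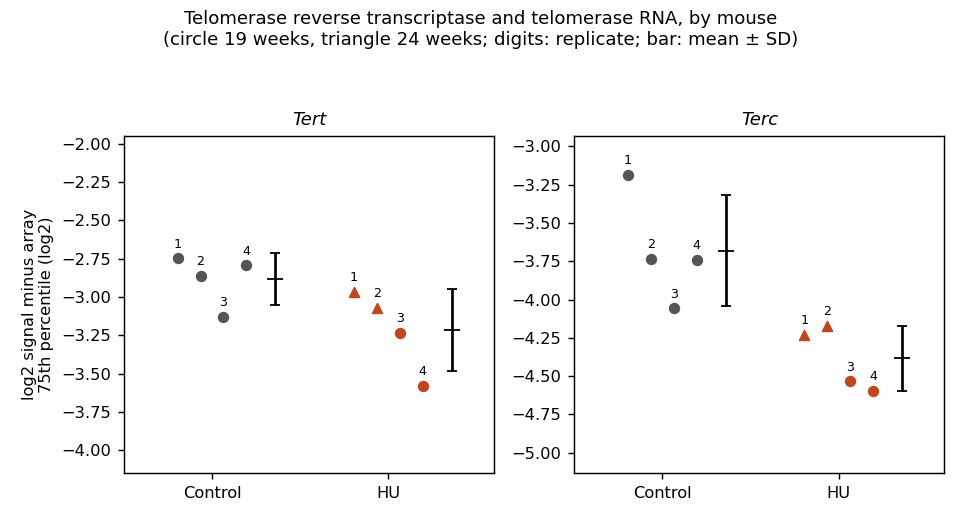
Tert and Terc are plotted by mouse as log2 signal minus the array's 75th percentile, with the replicate number at each point, circles for 19 weeks, triangles for 24 weeks and a bar for the mean ± SD. For Terc the 4 treated points (-4.60 to -4.17) lie below the 4 Control points (-4.06 to -3.19), and for Tert the lowest Control point (-3.13) lies among the treated points.

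Dkc1, dyskerin, binds and stabilises Terc in the telomerase particle. Untreated mice 1 to 4 had -1.02, -0.90, -1.20 and -1.08, and treated mice 1 to 4 had -1.05, -0.94, -0.91 and -1.01. The groups overlapped, and the log2 difference was 0.07 ± 0.08 (SE, n = 4 per group), with an interval from -0.11 to 0.25. The mean of this gene was thus not lower in treated mice, unlike that of Terc, though its interval includes 0. With median centring the Dkc1 difference was -0.0107.

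Rtel1, the helicase, gave 0.73, 0.73, 0.96 and 0.82 for untreated mice 1 to 4, against 0.65, 0.49, 0.73 and 0.33 for treated mice 1 to 4. The groups were apart by 0.0015 only, between Control 1 and Hydroxyurea 3. The log2 difference was -0.26 ± 0.10 (SE; limma adjusted p = 0.491), with an interval from -0.49 to -0.03, or 0.834-fold. It ranged from -0.32 to -0.19 as single mice were left out.

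Set against all genes, these counts are near the background. Of the 9 genes other than Pot1b, 1 had lower values at an unadjusted p under 0.05 and 0 had higher values. Over all genes tested those shares were 6.36% and 3.53%. Lower values without overlap were seen for 1 of these 9 genes, against 5.11% of all genes, and higher values without overlap for 0, against 2.38%. In either direction, 7.50% of all genes did not overlap. The median log2 difference of the 9 genes was -0.01, and that of all genes was -0.00. The 95% intervals excluded a 1.5-fold change either way for 7 of the 9, with Pot1a and Tert as the exceptions, and a 2-fold change for all 9. A difference below 0 was found for 6 of these 9 genes and for 8520 of all 16618 genes. Counted with Pot1b, which was chosen for its low treated values, it was 7 of 10. That count of 10 genes gave 9 with median centring, 5 with quantile scaling and 6 with normexp. Among all genes, 64.3% of those at an unadjusted p under 0.05 had lower values, and 90.8% with median centring.

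Wider telomere biology was read from 4 further lists, of which 56 of 57 genes were tested and 0 passed (limma). At an unadjusted p under 0.05, 2 of the 56 had lower values, Terc and Pinx1, and 0 had higher values. Differences below 0 were found for 33 of the 56, with a median of -0.04, and for 8520 of all 16618 genes, with a median of -0.00. With median centring, which moved the median of all genes to -0.09, 45 of the 56 were below 0. Pinx1, which binds Terf1 and inhibits telomerase, had 2.52 ± 0.22 in Control and 2.18 ± 0.10 in Hydroxyurea mice (SD), a difference of -0.34 ± 0.12 (SE; adjusted p = 0.476). Its Control 1 value, 2.19, lay within the treated range, and without that mouse the difference was -0.45.

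Genes of the telomerase particle and its assembly had 13 of 16 differences below 0, with a median of -0.06. Of all 16618 genes, 8520 were below 0. Gar1, a protein of the same particle as Dkc1, was 3.16 to 3.25 in Control and 2.97 to 3.16 in treated mice. The difference was -0.13 ± 0.06 (limma adjusted p = 0.516), and the groups did not overlap. Lower values without overlap were seen for 2 of these 16 genes, Terc and Gar1, against 5.11% of all genes. Genes of the CST complex and of the fill-in polymerase had 4 of 7 below 0. Among them Pola2, a subunit of that polymerase, had 0.38 ± 0.19 from a dim probe that cleared background in 3 mice of each group. Helicase, nuclease and end-processing genes had 9 of 16 below 0, with Mre11a, a nuclease, at -0.15 ± 0.07 and Rif1, a regulator of replication timing, at -0.17 ± 0.08 (adjusted p = 0.520 for each). Partners of shelterin and telomere chromatin genes had 7 of 17 below 0, with a median of 0.01. A second Rif1 probe was dim and is not reported.

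**Figure D4:**
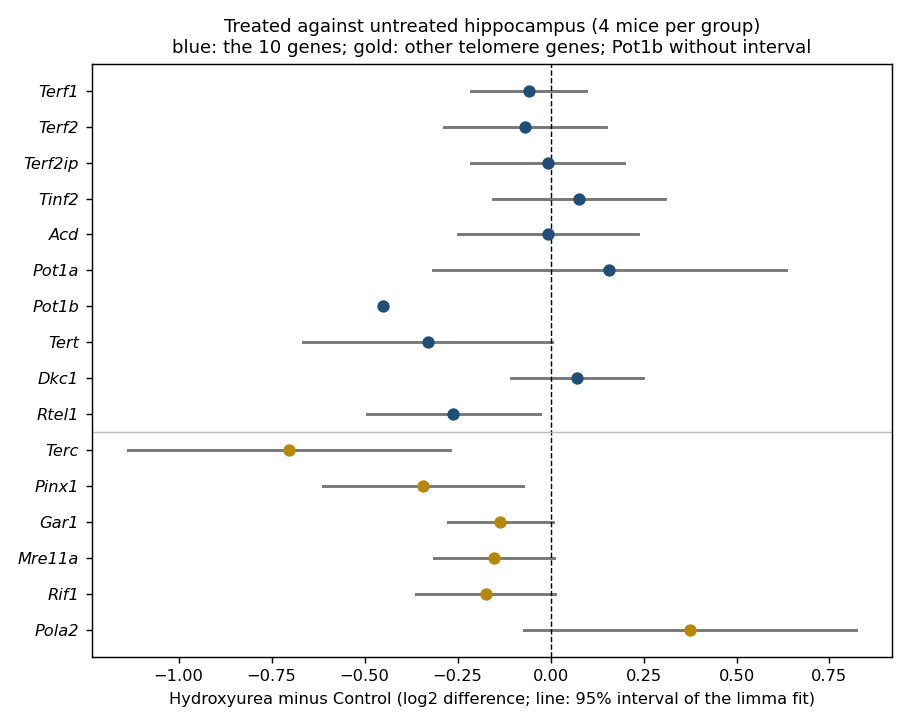
Points give the log2 difference of Hydroxyurea minus Control for the 10 genes (blue) and for 6 other telomere genes with the smallest unadjusted p (gold), and lines give 95% intervals of the limma fit, left out for Pot1b. Most intervals include 0, and that of Terc runs from -1.14 to -0.27.

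**Figure D5:**
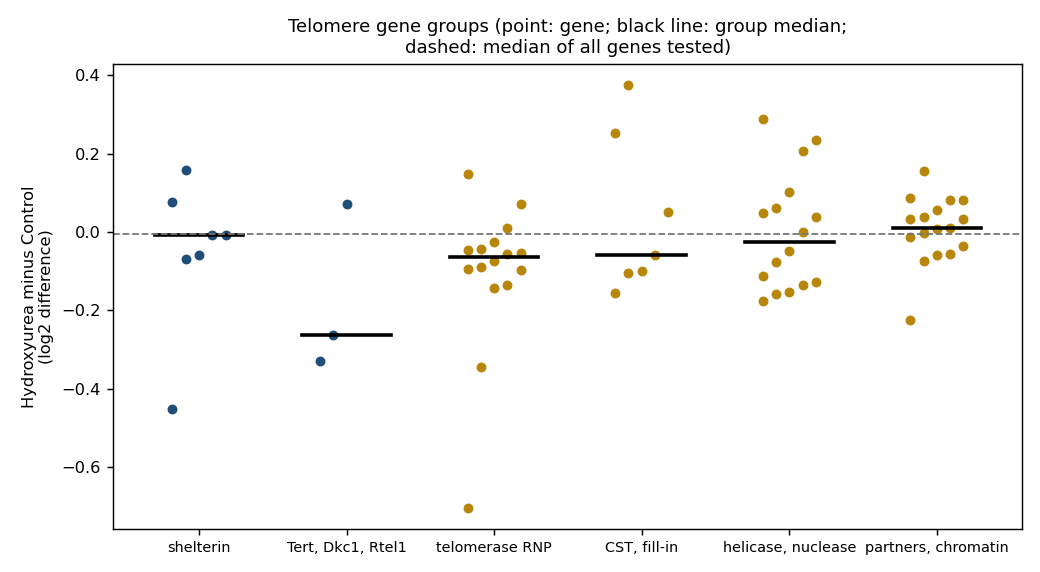
Each point is the log2 difference of 1 gene, grouped by telomere function, with a black line at the group median and a dashed line at the median of all genes tested. The medians lie between -0.26 for Tert, Dkc1 and Rtel1 and 0.01 for partners and chromatin genes, and Terc is the lowest point at -0.70.

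The treated mice also differed in age, a contrast that did not choose the genes. No gene of the set passed, and 0 of 10 had an unadjusted p under 0.05, against 2.70% of all genes (limma; 0 genes or 0.00% passed the adjusted threshold). Tert came nearest, at -3.02 in the 24-week and -3.41 in the 19-week mice, a log2 difference of 0.39 ± 0.16 (SE, n = 2 per age; limma adjusted p = 1.0). The 24-week mean lay within the Control range and the 19-week mean below it. Red cell markers differed between the same mice: Hbb-b1, Hba-a1 and Alas2 were higher at 24 weeks by 1.08 ± 0.19, 0.83 ± 0.17 and 0.996 ± 0.285, without passing the adjusted test. Their score was 0.37 and 0.69 in the 24-week mice and -0.57 and -0.31 in the 19-week treated mice, and its part in the Tert values was not tested. Terc had 0.36 ± 0.25, Pot1a 0.32 ± 0.29 and Pot1b -0.11 ± 0.09 between the ages. The other 7 genes had differences from -0.10 to 0.12. Among 19-week mice only, the Tert difference between treated and untreated mice was -0.52 ± 0.15 (adjusted p = 0.723). All untreated mice were 19 weeks old. Treatment lasted 10 weeks in each treated mouse and began at 9 to 14 weeks of age. If it ran up to sampling, the older treated mice began later, so age and start age cannot be told apart.

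The 5 named genes whose values over the 8 mice were most like those of Pot1b were Dnajb6, Zmynd11, Pxylp1, Rbm14 and Smchd1, each with a Pearson correlation of 0.98. Their log2 differences between the groups were -0.24 to -0.15. Since Pot1b was chosen for its group difference, genes that separate the groups must rank high on this measure.

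The labelled tissue was checked by its markers: all 10 hippocampal neuron markers examined, Prox1 of the dentate gyrus and Wfs1 of CA1 among them, were well above background on all 8 arrays. The percentage of spots well above background was 63.0 to 77.2 in untreated and 60.6 to 69.8 in treated mice. All arrays lay on 1 slide, Control in the first row and Hydroxyurea in the second, so row and group cannot be told apart. In bulk tissue, fewer cells of a type and less RNA per cell cannot be told apart either. Choroid plexus markers had higher values in treated mice for 12 of 12 genes, with scores of -2.22 to 0.89 in the untreated and -1.22 to 2.80 in the treated. Leukocyte markers had higher values for 7 of 7 tested, with scores of -0.46 to -0.08 and 0.06 to 0.43. Some of these probes were near background: Ngp cleared it in 3 untreated and 2 treated mice, and Ccr7 in 2 of each group. Of 10 markers of cycling cells, 5 were tested, and 3 of these 5 had differences above 0. Mki67 had 0.08 ± 0.12, Ccnb1 0.49 ± 0.19 and Mcm2 0.33 ± 0.14, while Birc5 had -0.21 ± 0.12 and Pcna -0.06 ± 0.06 (SE). Among the untested markers, Top2a and Cdk1 each cleared background in 2 untreated and 0 treated mice. Cenpf did so in 1 mouse of each group, and Bub1 and Aurkb in 0 mice. The mean of Top2a was -6.45 in Control and -6.28 in Hydroxyurea mice, and that of Cdk1 was -5.87 and -6.25. For Bub1, Aurkb and Cenpf the means were -7.27, -8.20 and -7.19 in Control and -7.26, -7.48 and -5.90 in Hydroxyurea mice. The part of these cells in the telomerase and Pot1b values was not tested.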

How the data were processed

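Hippocampal RNA (200 ng per mouse, Cy3-labelled per the labels' protocols) was measured on 8 arrays. Per the file headers, Feature Extraction 12.0.3.1 supplied a processed intensity for each spot, with background already removed array by array and no scaling across arrays. The deposited value table of the authors holds a score per feature. A z score of the log signal differed from it by at most 0.00502, so it was used for directions and calls and not for fold changes.

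Of 55681 non-control probes, 28331 were named by RefSeq accession (table of GRCm38.p6, while the headers give mm9, so coordinates are printed only for the RefSeq promoter windows, on that table's build). Spots of a probe were averaged without outlier-marked ones. The brightest probe stood for a gene. Testing required a probe well above background in at least 4 of 8 mice and a value in at least 6. limma 3.58.1 (lmFit, eBayes; R 4.3.3) was run over 16618 genes, two-sided, with Benjamini-Hochberg adjustment, and the ages in a fit with 3 group means over 8 arrays. Signal over background and 4 arrays per group limit the precision. The labels do not say which mice shared a cage.

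Members, lists and the rule for named genes were chosen with earlier results of these data known. The rule took the 10 members, the 6 other telomere genes with the smallest unadjusted p, Terc and the 5 genes most like Pot1b. The fit was tested on simulated data. Marker lists also covered ependyma (7 of 8 genes higher), oligodendrocytes (6 of 8), astrocytes (3 of 8), microglia (5 of 8), endothelium (5 of 8), red cells (3 of 3), thalamus (6 of 6) and striatum (5 of 6), with 0 genes past the adjusted threshold. A mouse's score is the mean deviation of a list's genes from their means over 8 arrays. Normexp with an offset of 50 used the median spot signal. Keeping outlier-marked spots, and leaving out Control 1 and Hydroxyurea 2 together, were added after seeing the data.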

Additional observations from a re-analysis of the deposited data

Results flagged for a closer look

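In 4 of the 140 groups of 4 mice examined, 1 mouse stood far from the other three by Dixon's criterion, and chance alone gives about 1 in 20. All 4 cases were Control 1, the array with the noisiest replicate spots. Prim2, a primase subunit, was -1.626 there, against -0.473 to -0.243 for the remaining untreated mice. Exo1, an exonuclease that resects telomere ends, was -5.888 against -4.443 to -4.236. Nbn, of the Mre11 complex, was -1.137 against -1.549 to -1.517. Smarcal1, a fork-remodelling enzyme, was 1.479 against 2.992 to 3.027. None of the 10 shelterin and telomere genes was among them.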

How the results depend on the processing

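No setting brought any gene past the adjusted threshold for treatment, or any of the 10 genes for age (limma). Genes at an unadjusted p under 0.05 numbered 1643, against 3097 with array weights, 2522 without Control 1 and 2483 with no filter on dim probes, where 39.3% had lower values. Tert, Rtel1, Terf1 and Terc kept their sign of the treatment difference in 22 of 22 settings, many of which could not turn it. The filters on dim probes, the mean of all probes, another variance fit, the replicate block and kept outlier-marked spots left these differences unchanged. For Rtel1 and Terc, whose groups did not overlap, leaving out mice could not turn the sign. Differences that turned sign follow. For treatment, Pot1a was -0.000644 among 19-week mice and with age as a covariate, and Pot1b was 0.00256 with normexp. Terf2 was 0.0439 with the mean of all probes and 0.0149 with array weights. Terf2ip was 0.00422 with quantile scaling, 0.0075 in the value table, 0.0348 with the mean of all probes, 0.0488 with array weights and 0.100 without Control 1 and Hydroxyurea 2. Acd was 0.0186, 0.0175, 0.0459 (array weights) and 0.0553 in the same settings other than the mean of probes. With median centring, Tinf2 was -0.00539 and Dkc1 -0.0107. With single mice left out, treatment differences ran from -0.00845 to 0.259 for Pot1a, -0.111 to 0.0132 for Terf2, -0.0501 to 0.0635 for Terf2ip and -0.0607 to 0.0888 for Acd. Between the ages, Pot1b was 0.332 with normexp. Without Control 1 and Hydroxyurea 2, Pot1a was -0.0234 and Acd -0.0289. Median centring gave -0.0847 for Terf2ip, -0.0374 for Acd and -0.0477 for Rtel1, and normexp gave -0.0502 for Terf2ip and -0.00771 for Acd. With single mice left out, age differences ran from -0.0234 to 0.656 for Pot1a, -0.104 to 0.0163 for Terf1, -0.0654 to 0.308 for Terf2, -0.109 to 0.110 for Terf2ip, -0.0289 to 0.124 for Acd, -0.0878 to 0.0271 for Dkc1 and -0.161 to 0.236 for Rtel1. A setting that leaves 1 mouse of an age takes its spread from the other groups. The cause of these turns was not tested.

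With the replicate number as a block (replicate block), 0 genes passed. The block leaves mean differences such as that of Tert (-0.33) the same by construction. Mice that share a number had correlations of -0.21 to 0.20 in their deviations. These values cannot decide whether the numbers pair mice. Pot1b could not be tested where a probe had to be well above background on all arrays. Signal over background limits the reading of Pot1b, and 4 mice per group limit every comparison.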
